A study of Mus musculus with 4 samples.

Results

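The Hedgehog pathway was examined through 10 genes: Ptch1, Hhip, Boc, Cdon, Gas1, Smo, Sufu, Gli1, Gli2 and Gli3. They were chosen by symbol, with earlier results of these data known. Each was found once by its Ensembl identifier among the 55414 identifiers of the count files, and 9 of the 10 had enough reads to be tested, in a fit over 19912 genes. Gli1 alone fell under the minimum. The libraries were RNA sequencing libraries of primary neural stem cells from E14.5 mouse cortex, with 2 libraries from Mettl4 knockout cells and 2 from wild type cells. The Mettl4 protein is an adenosine methyltransferase. Both groups were grown with EGF at 20 ng/ml and basic FGF at 10 ng/ml, first as floating spheres and then as an adherent monolayer, so all values describe cultured progenitors and not cortex in place. No Hedgehog ligand or agonist is named in the medium. The kind of knockout allele, the deleted part of Mettl4 and the number of embryos behind each library were not given in the sources used here. The p-values hence reflect differences among the libraries of a genotype, and these differences may be technical.

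In Hedgehog signalling a secreted ligand such as Sonic hedgehog binds the membrane protein Patched, encoded by Ptch1, and relieves its block on Smoothened, encoded by Smo. Boc, Cdon and Gas1 encode co-receptors that help the ligand bind, and Hhip encodes a membrane protein that holds the ligand away. Active Smoothened acts in the primary cilium and frees the GLI transcription factors from Sufu. Gli2 mainly supplies activators, Gli3 is cut to a repressor in the absence of ligand, and Gli1, Ptch1 and Hhip are themselves transcribed in response to the signal. In the embryonic forebrain the pathway specifies ventral progenitors, and Gli3 repressor is needed for the dorsal, cortical side.

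The libraries ran from 12812064 to 19310668 counts. Mettl4 stood at 15.6 and 17.6 CPM (counts scaled to a common library size) in the knockout libraries, against 63.8 and 66.6 CPM in the wild type libraries, a log2 fold change of -1.97 (SE 0.17, adjusted p = 0.0051 by edgeR's quasi-likelihood test with Benjamini-Hochberg adjustment). It was the only gene called at an adjusted p under 0.05. The progenitor markers Nes, Sox2 and Pax6 were present in every library. Nes stood at 347 and 399 CPM in the knockout and 369 and 258 CPM in the wild type, Sox2 at 196 and 213 CPM in the knockout and 174 and 196 CPM in the wild type, and Pax6 at 38.9 and 41.4 CPM in the knockout and 41.8 and 45.2 CPM in the wild type. All 10 listed stem cell markers passed the filter. Markers of microglia and of vessel and blood cells were low. The 4 microglial genes summed to 7.33 and 6.51 CPM in the knockout and 6.79 and 6.28 CPM in the wild type. The 4 endothelial genes summed to 1.64 and 1.53 CPM in the knockout and 1.13 and 2.13 CPM in the wild type. The 4 red blood cell genes summed to 3.85 and 4.54 CPM in the knockout and 4.38 and 0.671 CPM in the wild type, and the 6 neuronal genes to 1131 and 1351 CPM in the knockout and 1017 and 1286 CPM in the wild type. Nearly all of the neuronal sum was Map2, at 1110 and 1335 CPM in the knockout and 999.7 and 1266 CPM in the wild type, and none of the other 5 neuronal genes exceeded 6.83 CPM in any library.

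The identifiers and chromosomes of the members are ENSMUSG00000021466 on chromosome 13 for Ptch1, ENSMUSG00000064325 on 8 for Hhip, ENSMUSG00000022687 on 16 for Boc, ENSMUSG00000038119 on 9 for Cdon and ENSMUSG00000052957 on 13 for Gas1. They are ENSMUSG00000001761 on 6 for Smo, ENSMUSG00000025231 on 19 for Sufu, ENSMUSG00000025407 on 10 for Gli1, ENSMUSG00000048402 on 1 for Gli2 and ENSMUSG00000021318 on 13 for Gli3.

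The cultures carried RNA for the receiving side of the pathway, with little RNA of its ligands and almost none of Gli1. Levels are compared between genes as CPM per kilobase of annotated exons. Gas1 was highest, with 38.5 and 38.3 CPM per kb in the knockout libraries and 45.1 and 30.6 CPM per kb in the wild type libraries. Smo followed at a mean of 17.8 CPM per kb over the 4 libraries, then Ptch1 at 14.8 and Cdon at 11.2 CPM per kb. These 4 genes lay above at least 77.3% of the tested genes, whose median was 3.78 CPM per kb. Gas1 stood clear of Smo in every library, while the ranges of Smo and Ptch1, and of Ptch1 and Cdon, overlapped. Sufu came next with a mean of 4.87 CPM per kb, and its range touched neither Cdon above nor Boc below.

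The remaining members lay below the median gene. Boc had a mean of 3.04 CPM per kb and Gli3 one of 2.61 CPM per kb, with overlapping ranges. Gli2 at 1.43 and Hhip at 1.08 CPM per kb overlapped each other and lay below Gli3. Gli1 was lowest at 0.0528 and 0.0986 CPM per kb in the knockout libraries, against 0.0302 and 0.0366 CPM per kb in the wild type libraries. The same first 5 places were held in each of the 4 libraries, and only the neighbours Boc and Gli3, and Gli2 and Hhip, exchanged places between libraries. When the longest annotated transcript replaced the union of exons, Gli3 moved ahead of Boc and the other 8 places stayed as they were.

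**Figure D1:**
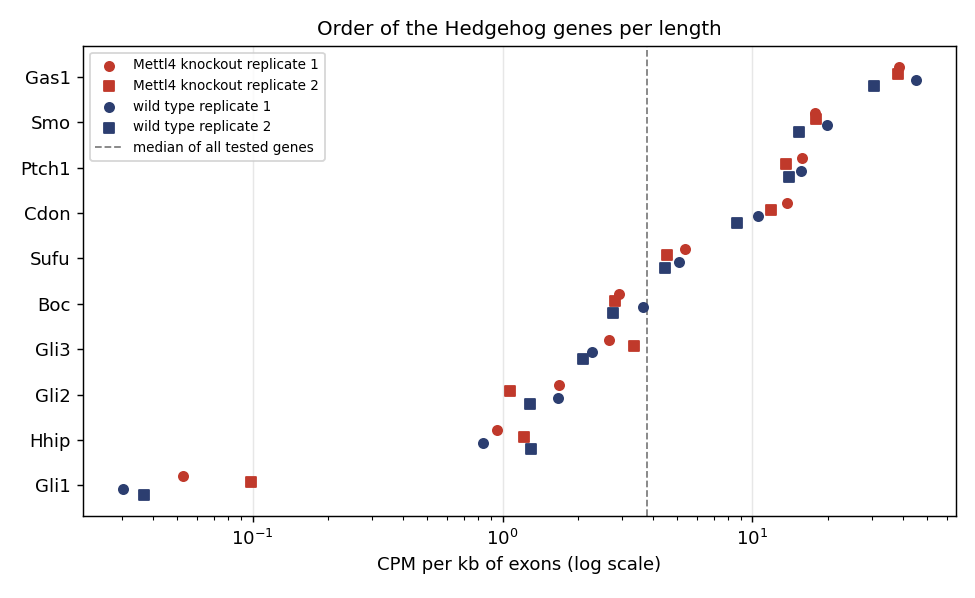
Level of each Hedgehog gene in CPM per kb of exons (log axis), one point per library, red for the Mettl4 knockout and blue for the wild type. Gas1 lies highest, between 30.6 and 45.1 CPM per kb, and Gli1 lowest, between 0.0302 and 0.0986 CPM per kb. The dashed line is the median of the tested genes, 3.78 CPM per kb.

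Promoter sequence is shown for 3 members. Ptch1 is the usual readout of the pathway, and Cdon and Gli3 had the highest fitted log2 fold changes among the members. Each run holds the 250 bases before the RefSeq start site (build GRCm38.p6, an earlier build than the one used for counting), with the GC box GGGCGG or its reverse CCGCCC in capitals. The Ptch1 run is chr13:63565736-63565985 on the minus strand, the Cdon run chr9:35451826-35452075 on the plus strand and the Gli3 run chr13:15463473-15463722 on the plus strand.
Ptch1: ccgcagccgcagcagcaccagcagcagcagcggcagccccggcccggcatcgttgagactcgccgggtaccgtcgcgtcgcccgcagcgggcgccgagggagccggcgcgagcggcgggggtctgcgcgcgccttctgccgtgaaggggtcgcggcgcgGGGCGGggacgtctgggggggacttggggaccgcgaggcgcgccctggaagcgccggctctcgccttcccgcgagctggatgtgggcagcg
Cdon: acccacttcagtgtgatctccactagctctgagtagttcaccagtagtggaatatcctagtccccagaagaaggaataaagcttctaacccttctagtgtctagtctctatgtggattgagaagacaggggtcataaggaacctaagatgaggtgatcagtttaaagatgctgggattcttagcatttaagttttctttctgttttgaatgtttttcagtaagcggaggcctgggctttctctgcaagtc
Gli3: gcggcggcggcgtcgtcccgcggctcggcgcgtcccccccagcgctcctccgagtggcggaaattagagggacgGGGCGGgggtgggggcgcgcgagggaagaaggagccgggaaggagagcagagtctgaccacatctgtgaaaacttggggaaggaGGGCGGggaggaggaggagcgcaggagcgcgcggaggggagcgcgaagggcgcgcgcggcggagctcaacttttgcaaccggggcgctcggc

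The 3 runs differ in base composition. Whether these cells use the listed start sites was not tested, so the values describe these windows and not the promoters in use. The Gli3 run is 72.8% G and C with 2 GC boxes and the Ptch1 run 78.4% with 1 GC box, whereas the Cdon run is 42.8% with 0 GC boxes and a single CpG. The median over the 32851 promoters of the table is 52.4%, and 32.7% of them hold a GC box on either strand. Of the 8 members with a promoter in the table, 6 hold one. The GLI binding motif GACCACCCA was searched on both strands. It occurred in 0 of these 8 runs, against 0.225% of all promoters, and with at most 1 mismatch in 0 of 8, against 5.79%. No match says only that these letters are not in this window.

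No difference between genotypes was detected for the receptors. Ptch1, the ligand receptor and a target of the signal, measured 225 and 193 CPM in the knockout libraries, against 223 and 198 CPM in the wild type libraries. The ranges overlapped almost entirely, and the log2 fold change was -0.01 (SE 0.16, 95% interval -0.36 to 0.34). Hhip, which sequesters ligand and is also a target, measured 8.65 and 11.1 CPM in the knockout, against 7.55 and 11.8 CPM in the wild type. Its replicates within each genotype lay further apart than the genotype means, and the log2 fold change was 0.02 (SE 0.27, interval -0.59 to 0.63). As fold changes the intervals ran from 0.781 to 1.27 for Ptch1 and from 0.664 to 1.54 for Hhip. With 2 libraries a group, a difference within these bounds is not excluded.

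Of the 3 co-receptors, Cdon lay higher in both knockout libraries, and Boc and Gas1 overlapped between genotypes. Cdon, an immunoglobulin-family co-receptor, measured 106 and 91.8 CPM in the knockout libraries, against 81.1 and 67.1 CPM in the wild type libraries. Both knockout libraries lay above both wild type libraries, with means of 98.8 ± 9.87 CPM in the knockout and 74.1 ± 9.85 CPM in the wild type (SD, n = 2 each). The log2 fold change was 0.42 (SE 0.15, interval 0.07 to 0.76, edgeR adjusted p = 0.9999). The interval lies above 0, and the difference did not pass adjustment over all genes. Boc, its close relative, measured 13.03 and 12.5 CPM in the knockout, against 16.3 and 12.3 CPM in the wild type. The Boc groups overlapped, with the highest value in wild type replicate 1 (log2 fold change -0.16, SE 0.23). Within each library, Cdon per length was 4.68 and 4.23 times Boc in the knockout, against 2.87 and 3.14 times in the wild type, a ratio without overlap between the groups that was not tested. Gas1 per length was 2.81 and 3.22 times Cdon in the knockout, against 4.29 and 3.52 times in the wild type, likewise without overlap and not tested. Both ratios contain Cdon, so they restate its difference and add no separate observation. The ratios of Ptch1 to Hhip and of Ptch1 to Smo overlapped between genotypes.

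Gas1, the lipid-anchored co-receptor, measured 114 and 114 CPM in the knockout libraries, against 134 and 90.7 CPM in the wild type libraries. The wild type libraries lay on either side of the knockout libraries, and the log2 fold change was 0.02 (SE 0.18, interval -0.38 to 0.43). Gas1 shares 589 bases of exon with the opposite-strand transcript Gm48488, and 16.96% of its 50-base stretches occur in that transcript. Gm48488 itself had 434 and 503 counts in the knockout and 426 and 357 counts in the wild type. The strand setting of the counting was not given in the sources used here, and reads from the shared stretch cannot be told apart. Among the other members, at most 4.51% of 50-base stretches occur in another annotated gene (Gli1), and 0 stretches are shared between members.

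The transducers overlapped between genotypes too. Smo, the signal-carrying membrane protein, measured 99.7 and 101 CPM in the knockout libraries, against 112 and 86.2 CPM in the wild type libraries. As with Gas1, the wild type values enclosed the knockout values (log2 fold change 0.02, SE 0.16, interval -0.33 to 0.37). Sufu, which holds GLI proteins inactive, measured 41.4 and 35.1 CPM in the knockout, against 39.0 and 34.3 CPM in the wild type. Replicate 1 was the higher of the pair in both groups, and the log2 fold change was 0.06 (SE 0.17, interval -0.32 to 0.44).

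Of the GLI factors, Gli3 lay higher in the knockout libraries, Gli2 overlapped, and Gli1 was near the limit of detection. Gli3 measured 25.6 and 32.3 CPM in the knockout, against 21.96 and 20.2 CPM in the wild type. Both knockout libraries exceeded both wild type libraries, with the highest value in knockout replicate 2 and means of 28.97 ± 4.70 CPM in the knockout and 21.1 ± 1.26 CPM in the wild type (SD, n = 2 each). The log2 fold change was 0.46 (SE 0.19, interval 0.03 to 0.89, edgeR adjusted p = 0.9999), and it did not pass adjustment over all genes. Gli3 shares 188 bases of exon with the opposite-strand transcript Gm6556, which had 22 and 19 counts in the knockout and 11 and 20 counts in the wild type. Gli2 measured 11.6 and 7.39 CPM in the knockout, against 11.5 and 8.84 CPM in the wild type. Its spread within the knockout, 0.65 on the log2 scale, was larger than its log2 fold change of -0.10 (SE 0.28). Per length, Gli3 was 1.59 and 3.13 times Gli2 in the knockout libraries, against 1.37 and 1.64 times in the wild type libraries, so this ratio overlapped between genotypes and stood apart only in knockout replicate 2.

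Gli1, an activator that is transcribed in response to the signal, had 5 and 9 counts in the knockout libraries, against 2 and 3 counts in the wild type libraries. The groups did not overlap. Summed over libraries this is 14 counts against 5, a ratio of 2.22 after scaling to library totals, with an exact 95% interval from 0.755 to 7.87. The interval includes 1 and covers counting error only. Gli1 was under the low-count filter and was not tested. Without a filter its edgeR adjusted p was 0.9952.

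**Figure D2:**
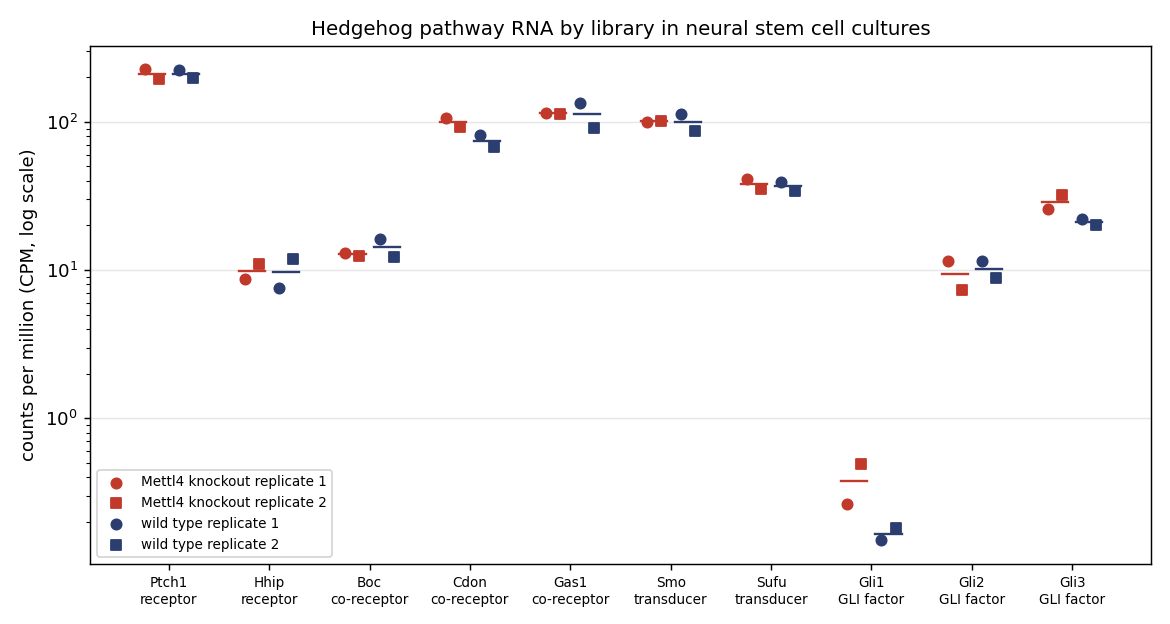
CPM (log axis) of the 10 Hedgehog genes in each library, red for the Mettl4 knockout and blue for the wild type, with circles for replicate 1, squares for replicate 2 and short bars for group means. Among the 9 tested genes, the knockout points lie clear of the wild type points for Cdon and Gli3 and overlap them for the other 7.

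Across the members, 0 of 9 tested genes were called by edgeR at an adjusted p under 0.05, where 0.00502% of all tested genes were called. DESeq2 and limma-voom called 0 as well. At an unadjusted edgeR p under 0.05 there were 2, Cdon and Gli3, both higher in the knockout, and the share over all tested genes was 2.77% in either direction and 1.15% higher in the knockout. DESeq2 had 1 member at that level, with 291 of all 19912 genes, and limma-voom 2, with 548 of 19912. The members were chosen with earlier results of these data known, so these counts cannot show an excess in the pathway. Non-overlapping groups were found for the same 2 of 9 members, against 27.4% of all tested genes in either direction and 12.5% with the knockout higher, so the either-direction share is near the background. The log2 fold change was positive for 6 members (7 with DESeq2 size factors, where Ptch1 changed sign) and negative for 3, with a median of 0.02, against 49.7% positive and a median of 0.00 over all tested genes.

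**Figure D3:**
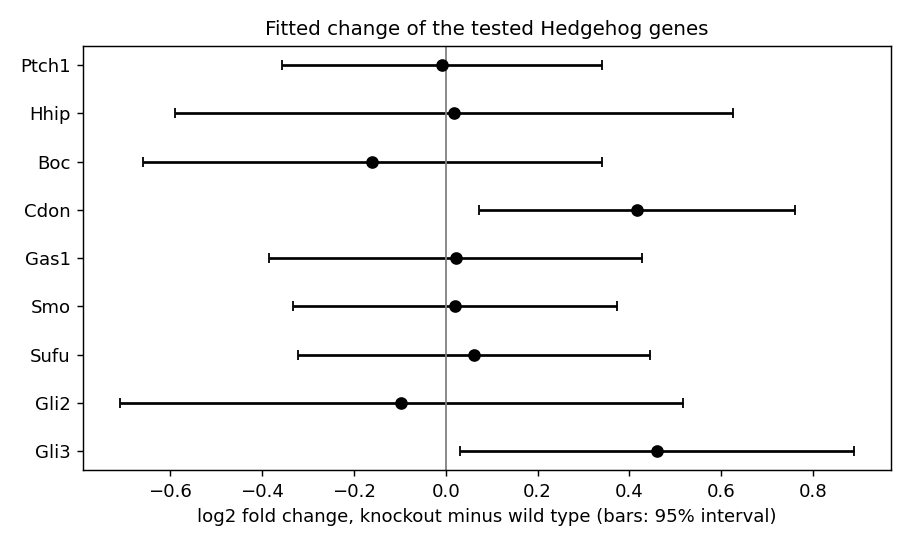
Fitted log2 fold change, knockout minus wild type, of the 9 tested Hedgehog genes (points) with 95% intervals (bars). The intervals of Cdon (0.07 to 0.76) and Gli3 (0.03 to 0.89) lie above 0 before adjustment for the number of genes, and the other 7 include 0.

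The wild type libraries differed from each other in a shared direction for these genes. Wild type replicate 1 was above wild type replicate 2 for 8 of 9 tested members, Hhip being the exception, where 50.1% of all tested genes lay that way. Knockout replicate 1 was above knockout replicate 2 for 6 of 9 members, against 53.2% of all tested genes. The sign depended on the library left out. Of the 9 members, 7 changed sign in at least 1 of the 4 fits without a library, and Cdon and Gli3 kept a positive sign in all 4. Cdon ranged from 0.30 without wild type replicate 2 to 0.56 without wild type replicate 1, and Gli3 from 0.28 without knockout replicate 2 to 0.62 without knockout replicate 1. Hedgehog genes with a positive log2 fold change numbered 3 without wild type replicate 2, 5 without knockout replicate 1, 7 without knockout replicate 2 and 8 without wild type replicate 1. Each of these fits leaves 1 library in a group, so unadjusted p-values from them are not given here. No member was called in any of these fits.

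**Figure D4:**
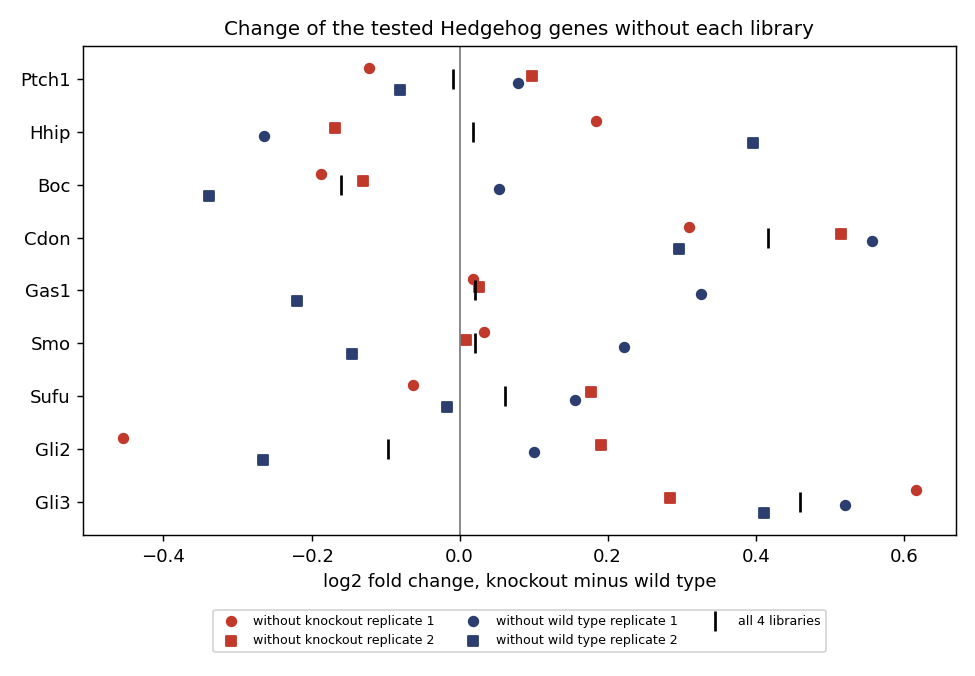
Log2 fold change, knockout minus wild type, of the 9 tested Hedgehog genes after leaving out each library, red where a knockout library and blue where a wild type library was left out. The black strokes are the values from all 4 libraries. Points fall on both sides of 0 for 7 genes, while Cdon (0.30 to 0.56) and Gli3 (0.28 to 0.62) stay above it.

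None of the cell type markers was called by edgeR, and the values of those lists that stood apart in some library are given beside Cdon and Gli3. In bulk RNA, more cells of a type and more RNA per cell cannot be told apart. The 4 astrocyte markers summed to 285 and 229 CPM in the knockout libraries, against 140 and 199 CPM in the wild type libraries, mostly through Aldh1l1 at 247 and 198 CPM against 110 and 158 CPM, while Gfap was low at 3.54 and 1.26 CPM against 3.85 and 4.88 CPM. Of these 4 markers 2 had a positive log2 fold change. All 5 oligodendrocyte lineage markers had a positive log2 fold change, with sums of 85.0 and 64.6 CPM in the knockout, against 66.3 and 54.4 CPM in the wild type, and these sums overlapped. The 5 ventral forebrain markers summed to 21.9 and 19.1 CPM in the knockout, against 5.13 and 17.2 CPM in the wild type, with all 3 tested genes positive. Most of this was Sp8, at 17.99 and 16.3 CPM in the knockout, against 4.23 and 14.51 CPM in the wild type. For Sp8, wild type replicate 1 alone was far lower. The other markers had few reads. Dlx2, under the low-count filter, had 17 and 9 counts in the knockout against 2 and 3 in the wild type. Dlx1 had 17 and 21 counts against 5 and 14, and Gsx2, whose groups overlapped, 39 and 22 against 5 and 27. Nkx2-1, which marks the most ventral progenitors, had at most 1 count in any library. The 8 mesenchymal and mural markers summed to 4.33 and 3.72 CPM in the knockout, against 9.96 and 7.26 CPM in the wild type. Acta2 and Tagln, the only 2 of these 8 tested, had negative log2 fold changes. Of the 10 stem cell markers 6 had a negative log2 fold change. Pax6, Vim, Hes1, Slc1a3 and Prom1 were lower in both knockout libraries than in either wild type library. Of the 10 stem cell markers, 5 thus stood apart in this direction and 0 in the other. Over all tested genes, 27.4% had groups without overlap in either direction, and 12.5% with the knockout higher. For Prom1 the gap was slight, at 6.86 and 7.22 CPM in the knockout against 7.55 and 7.26 CPM in the wild type. The part of these markers in the Cdon and Gli3 values was not tested.

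Other genes of the pathway were read from 4 lists of 47 genes in all, of which 36 were tested. None was called by edgeR in either direction, 0 had an unadjusted p under 0.05, and 17 were positive and 19 negative. Among 9 genes for ligands and their release, Shh, which encodes the main forebrain ligand, had 6 and 3 counts in the knockout libraries, against 3 and 11 counts in the wild type libraries. Ihh, for a ligand best known in cartilage, had 2 and 4 counts in the knockout, against 4 and 2 in the wild type. Dhh, for a ligand known from Schwann cells and testis, was the only gene for a ligand itself that was tested, at 2.01 and 2.41 CPM in the knockout against 2.04 and 0.915 CPM in the wild type (log2 fold change 0.60, SE 0.44). Wild type replicate 2 alone was low, and the log2 fold change was 0.13 without that library and 1.26 without wild type replicate 1.

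Of the 8 other membrane regulators, 7 were tested, 2 positive and 5 negative. Gpr161, a ciliary receptor that keeps the pathway off through protein kinase A, measured 26.3 and 22.9 CPM in the knockout libraries, against 23.2 and 19.3 CPM in the wild type libraries, with overlapping groups (log2 fold change 0.21, SE 0.19). All 18 genes of the cilium and of GLI processing were tested, with 9 positive, 9 negative and a median of 0.01 on the log2 scale. Kif7, a ciliary kinesin that organises GLI proteins at the cilium tip, measured 13.03 and 13.4 CPM in the knockout, against 11.9 and 12.3 CPM in the wild type (log2 fold change 0.12, SE 0.21). The 2 highest log2 fold changes of this list, singled out after their values were seen, belonged to Stk36, a kinase related to fly Fused, at 0.59 (SE 0.29), and Arl13b, a small GTPase of the ciliary membrane, at 0.42 (SE 0.20). Both genes lay higher in each knockout library than in either wild type library, and neither passed (edgeR adjusted p = 0.9999). Of the 18 genes in this list, 4 stood apart in that direction and 1 in the other. Over all tested genes the share was 12.5% with the knockout higher and 27.4% in either direction, so the list's either-direction share is near the background.

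**Figure D5:**
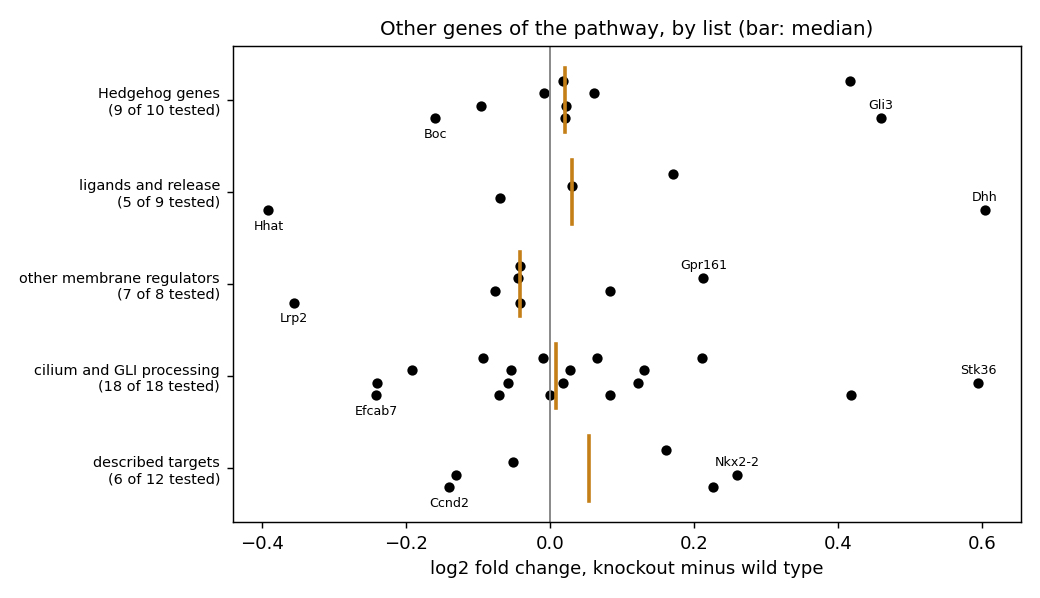
Log2 fold change, knockout minus wild type, of each tested gene in the Hedgehog set and in the 4 other pathway lists (points) with the list median (bar); the lowest and highest gene of each list are named. The medians lie between -0.04 and 0.05, and no point was called.

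Of 12 genes described as Hedgehog targets in neural or other tissues, 6 passed the filter, 3 positive and 3 negative. Ccnd1, the cyclin through which the signal drives precursor division in cerebellum, measured 888 and 747 CPM in the knockout libraries, against 965 and 825 CPM in the wild type libraries (log2 fold change -0.13, SE 0.20). Mycn, another such target, measured 2.85 and 2.79 CPM in the knockout, against 3.17 and 1.71 CPM in the wild type (log2 fold change 0.23, SE 0.37). Both overlapped between genotypes. Olig2, a transcription factor of ventral progenitors and the oligodendrocyte lineage, measured 504 and 509 CPM in the knockout, against 440 and 467 CPM in the wild type. Its groups did not overlap, and the log2 fold change of 0.16 (SE 0.17) did not pass (edgeR adjusted p = 0.9999). Nkx2-2, a target in ventral spinal cord that is also used by oligodendrocyte precursors, measured 15.9 and 14.1 CPM in the knockout, against 9.96 and 15.1 CPM in the wild type, with wild type replicate 1 alone low. Its log2 fold change was 0.26 (SE 0.25). The floor plate gene Foxa2 had 0 counts in each library, which allows at most 0.155 to 0.234 CPM per library for counting error only.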

How the data were processed

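RNA sequencing counts per gene were analysed in 2 Mettl4 knockout and 2 wild type libraries of cultured mouse neural stem cells. The authors deposited raw read counts, 1 file per library; the submitters' processing notes name GRCm39, STAR 2.7.10 and featureCounts. Strandedness and multi-mapping options were not given in the sources used here. Symbols (52081 of 55414 identifiers matched) came from a separate list of gene names, and from GENCODE M21 where that list had none. Exon lengths came from GENCODE M21, an earlier build, and promoters from RefSeq.

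Depth was 12812064 to 19310668 counts a library. Low genes were removed by filterByExpr (minimum count 10) and libraries were scaled with TMM, and genotypes were compared with the edgeR 4.0.16 quasi-likelihood test (robust=TRUE, R 4.3.3), with Benjamini-Hochberg adjustment over all 19912 genes. Standard errors were the absolute log2 fold change divided by the square root of F, and intervals without replicates cover counting error only. Alternatives were 3 other scalings, 2 filters, DESeq2 1.42.0, limma-voom (limma 3.58.1), robust=FALSE, legacy=FALSE, a replicate block and leaving out each library. The members, gene lists and markers were chosen with earlier results of these data known. Named are all members, Mettl4, 9 pathway genes fixed by name whatever their values (1 of them is not reported here), and genes that a sentence on their role needs. The libraries within a group differed far beyond counting noise (chi-square per degree of freedom 29.5 in the knockout and 18.7 in the wild type). The 2 libraries of a group were hence not copies of each other. The labels give no batch.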

Additional observations from a re-analysis of the deposited data

How the results depend on the processing

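No Hedgehog gene and no other listed pathway gene was called in any of the 14 alternatives, where the smallest adjusted p of a member was 0.17 (Cdon with the replicate block). The number of genes called over the whole table was 1, and it was 41 without a low-count filter, 6 with DESeq2, 9 with the replicate block, and 1 to 47 without a library. Replicate numbers are shared by the groups but no label says that they mark pairs; the deviations of replicate 1 correlated at 0.23 across genes between the genotypes. Mettl4 was called in each alternative, at -2.06 to -1.89 without a library. The count of Hedgehog genes with a positive log2 fold change was 6, and 3 to 8 without a library; their median was 0.02, and -0.080 to 0.16 without a library. Ptch1 changed sign around 0 with DESeq2 size factors (0.0020), without a filter (0.0014) and with DESeq2 (0.0020). Without a library the log2 fold changes ran from -0.12 to 0.10 for Ptch1, -0.26 to 0.40 for Hhip, -0.34 to 0.054 for Boc, -0.22 to 0.33 for Gas1, -0.15 to 0.22 for Smo, -0.063 to 0.18 for Sufu, -0.45 to 0.19 for Gli2, -0.16 to 0.72 for Mycn and -0.0030 to 0.60 for Nkx2-2; the cause was not tested. Cdon and Gli3 stayed positive in the 14 alternatives, at 0.30 to 0.56 for Cdon and 0.28 to 0.62 for Gli3 without a library. An unadjusted p under 0.05 was lost for Gli3 with library totals as scaling and with DESeq2. The fits without a library leave 1 library in a group, so they cannot settle whether Cdon or Gli3 differs. With the longest transcript as length, 8 of 10 places in the order of levels were the same. The median SE of a log2 fold change was 0.25, which limits what 2 libraries a group can show.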
